A study of Zea mays with 7 samples.

Results

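The distal short arm of maize chromosome 2 is the gene-rich end of the chromosome that lies on both sides of b1, the gene at which paramutation was studied. It was taken as all coverage intervals of chromosome 2 from position 0 to 40 Mb, read in windows of 0.1 Mb, with the 5 windows from 19.5 to 20 Mb that hold b1 left out. That gave 395 of the 2437 windows of the chromosome, chosen by position alone. In the libraries compared, the windows held between 54713 intervals of 310289 on the chromosome (mm replicate 1) and 409945 of 2273330 (B73 replicate 2). The 2037 windows outside the arm and outside b1 are called the rest of the chromosome.

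Small RNAs were recovered from immature ears with antibodies that the labels name AGO104-AGO105 and that the study describes as AGO104 alone, then sequenced. B73 is an inbred line with a neutral b allele that served as the siRNA control, with 2 libraries. Mm is Mop1-1/mop1-1, heterozygous for the mutation and carrying B', also with 2 libraries, and mm is mop1-1/mop1-1 from the same B' stock, with reduced siRNAs and 2 libraries. The library labelled ago104 stands alone (replicate 2, no allele given in its label), so it entered no test and is given beside the others. Since mop1-1 was kept in a B' background and not in B73, a difference between B73 and the other genotypes cannot be told apart from one between stocks. No mock or input library was analysed here, and every value below is a share of a library, so a lower share cannot be told apart from less of one RNA or more of another.

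In plants, RNA-directed DNA methylation (RdDM) starts with a transcript of RNA polymerase IV that is made double-stranded by an RNA-dependent RNA polymerase, which is encoded by mop1 in maize. The product is cut into siRNAs, loaded into an ARGONAUTE protein such as AGO104 and guided back to matching DNA, where methylation is laid down. In maize these siRNAs are known to be dense in the short stretch between a gene and the nearest transposon, so the gene-rich ends of chromosome arms are rich in them.

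The arm held 1155 starts of protein-coding genes, or 2.92 per window, against 1.43 in the rest of the chromosome, 0.695 in the middle (80 to 120 Mb, 400 windows) and 2.73 in the last 400 windows of the long arm. On all of chromosome 2 the summed depth was lowest in mm replicate 1 (16527940) and, of the libraries compared, highest in B73 replicate 2 (80390824), with 381911764 for ago104. In the arm it was 8911168 and 14231973 in B73, 5288780 and 4796899 in Mm, and 2992109 and 5667755 in mm. The share of arm positions with any coverage was 7.24% and 9.55% in B73, 6.05% and 5.08% in Mm, 1.68% and 2.62% in mm and 28.8% in ago104, so mm rested on the fewest positions. The mean depth over covered positions was 4.52 and 5.48 in mm against 2.21 to 3.77 in the other 4 libraries compared.

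The B73 libraries differed from each other before any comparison. Across the 395 windows, replicates correlated in coverage with r = 0.975 in Mm and 0.985 in mm but 0.818 in B73, whose libraries agreed at 0.977 in covered bases (a description, since windows of a library share its depth). Single windows differed widely between the B73 libraries, and their part in the lower correlation was not tested. The window from 1.1 to 1.2 Mb held 12998 scaled units in B73 replicate 1 and 869 in B73 replicate 2, where a scaled unit is a millionth of a library's summed depth on chromosome 2. In B73 replicate 1, 97.5% of it lay in the 200 bp at 1121482, inside LOC100194172, where depth reached 39638. Results that rest on B73 are therefore also given without B73 replicate 1 where it changes them.

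The arm carried more precipitated small RNA per position than the rest of the chromosome, and about as much as the other gene-rich end. Its share of the summed depth was 17.68% and 17.70% in B73, 18.27% and 18.31% in Mm, 18.10% and 18.42% in mm and 18.06% in ago104. Relative to the rest of the chromosome, density in the arm was 1.11-fold to 1.17-fold, above 1 in 6 of 6 libraries with a geometric mean of 1.143 (exact sign-flip permutation test, two-sided, p = 0.03125, the smallest that 6 libraries allow, and 0.0341 after Benjamini-Hochberg adjustment over 12 such densities). Relative to the middle of the chromosome the mean was 1.277, again above 1 in 6 of 6 (the same p). Relative to the end of the long arm it was 0.956, above 1 in 1 of 6, which did not pass (exact p = 0.0625).

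The same order held for the number of positions covered, which no deep stretch can move. Covered bases were 1.079 times as dense in the arm as in the rest, 1.135 times as in the middle and 0.959 times as at the end of the long arm, with all 6 libraries on the same side each time (exact p = 0.03125). When depth was capped at 20 at every position, so that a deep stretch counts no more than a moderate one, the ratios were 1.129, 1.243 and 0.925, with the same 6 of 6 and the same p.

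The genotypes divided the chromosome almost alike. The share of summed depth in the arm did not separate mm from Mm (mean difference -0.026 percentage points, exact permutation p = 1) or from the other 4 libraries (p = 0.4). With 2 libraries a genotype, an exact test of mm against Mm cannot go below 0.333, and one of mm against the other 4 cannot go below 0.0667. With depth capped at 20, the arm held 18.04% and 17.95% in B73, 18.13% and 18.24% in Mm and 17.78% and 17.37% in mm, so that mm was lowest without overlap (exact permutation p = 0.0667, 0.133 adjusted over the 4 ways of taking the share). The same was seen for bases covered at a depth of 2 or more, at 18.54% and 18.36%, 18.47% and 18.79%, and 17.52% and 17.24%. For all covered bases the order turned, with 17.21% and 17.36% in Mm and 17.50% and 17.33% in mm (exact permutation p = 0.2 against the other 4), so the direction depended on how depth was counted.

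Against the middle of the chromosome, the excess in the arm was smaller in mm when deep stretches were held back. Capped density in the arm over that in the middle was 1.279 and 1.253 in B73, 1.284 and 1.301 in Mm, 1.194 and 1.154 in mm and 1.209 in ago104. Both mm libraries were below all others compared (exact permutation p = 0.0667). With uncapped depth the ratios were 1.229 and 1.202 in B73, 1.330 and 1.319 in Mm and 1.270 and 1.315 in mm, which overlapped (exact permutation p = 0.733).

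Along the arm, covered bases were spread evenly and depth was not. The 8 blocks of 5 Mb, counted from the chromosome end, held 213, 199, 166, 115, 123, 127, 116 and 96 protein-coding starts. Covered bases per Mb, scaled to 1000000 per library, lay between 4026 and 4949 in all blocks of the 6 libraries compared. They were highest in the third block, from 10 to 15 Mb (4833 to 4949), in every library, and lowest in the last 2 blocks (4026 to 4210).

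Coverage per Mb set mm apart in most blocks, in both directions. In the seventh block, from 30 to 35 Mb, it was 3864 and 5074 scaled units in B73, 4947 and 5267 in Mm and 6049 and 6707 in mm, with mm highest. Of its windows, those from 32 and 32.6 Mb are among the 5 deepest of the arm. Without them the block held 3685 and 4227 in B73, 4165 and 3989 in Mm and 3329 and 3007 in mm, so mm was then lowest. These windows were ranked by a mean that included mm, so leaving them out favoured a lower mm value and the turn is no test. In the eighth block it was 3370 and 3187 in B73, 3706 and 3436 in Mm and 2698 and 2649 in mm, with mm lowest. With all windows, both blocks separated mm from the other 4 libraries (exact permutation p = 0.0667, 0.213 adjusted over 8 blocks). In the first block the B73 libraries were at 6358 and 3801, Mm at 4083 and 3938 and mm at 3042 and 2986, with mm lowest (exact permutation p = 0.267). The high value of B73 replicate 1 there held the deep stretch at 1.1 Mb.

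**Figure D1:**
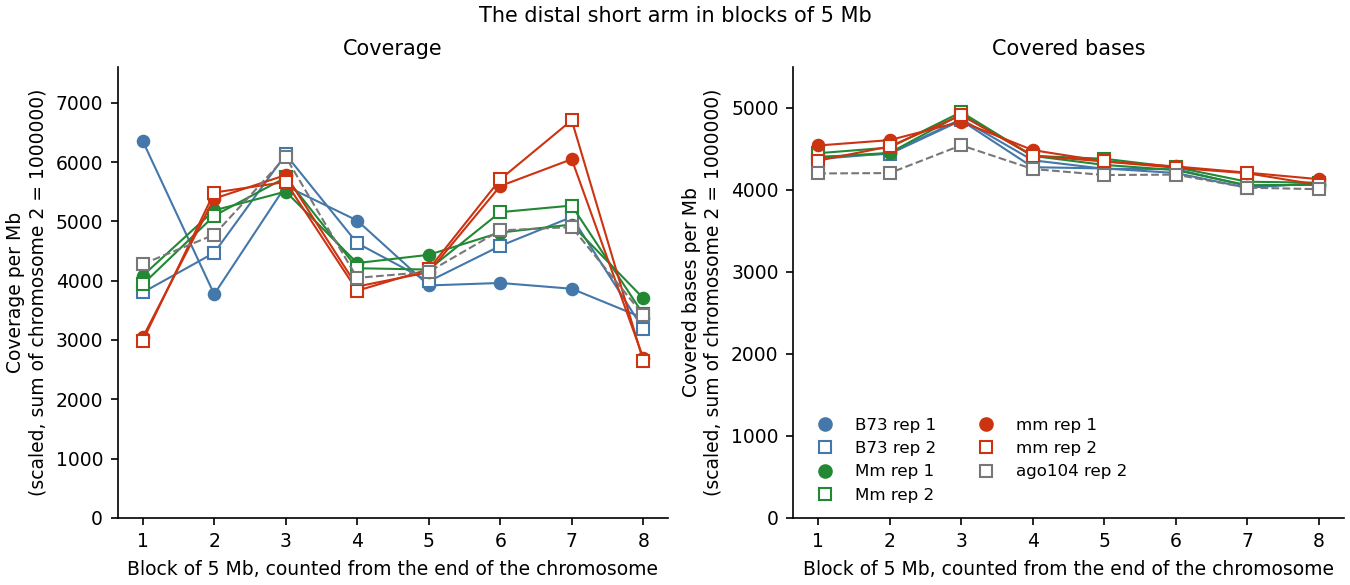
Coverage (left) and covered bases (right) per Mb in the 8 blocks of 5 Mb of the arm, each scaled so that chromosome 2 sums to 1000000 in a library. Points are single libraries joined by lines and the dashed line is ago104. Covered bases of the 6 libraries compared stay between 4026 and 4949, while coverage runs from 2649 to 6707 and sets the mm libraries apart in most blocks, among them 7 and 8.

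The isolated covered stretches of the arm were shorter in mm. A covered stretch with a constant depth and no coverage on either side comes from reads of a single start and end, so its length was read as the length over which those reads aligned. Only isolated stretches of up to 31 bases were counted, and longer ones entered no share. Those counted were 16 to 21 bases long, and their number in the arm was 99284 and 123791 in B73, 86834 and 73535 in Mm, 30210 and 45643 in mm and 236828 in ago104. Weighted by depth, stretches of 19 bases made up 39.71% and 38.65% in B73, 40.28% and 40.33% in Mm and 14.94% and 11.08% in mm. In the ago104 library the share was 39.22% (95% exact Clopper-Pearson interval 39.05 to 39.39, counting error only).

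The shorter classes had larger shares in mm. Stretches of 17 bases were 15.70% and 16.57% in B73, 15.12% and 14.99% in Mm and 31.38% and 33.25% in mm. Those of 16 bases were 14.48% and 15.78%, 12.10% and 12.98%, and 28.60% and 31.13%. The ratio of 19-base to 17-base stretches was thus 2.33 to 2.69 in the 4 libraries of B73 and Mm, 0.476 and 0.333 in mm and 2.59 in ago104.

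Stretches of 18 bases were 20.03% to 23.45% in B73 and Mm and 18.09% and 17.80% in mm, and those of 21 bases 0.65% to 0.92% and 1.87% and 2.21%. For each of these 5 lengths mm lay outside the range of the other 4 libraries (exact permutation p = 0.0667, the smallest possible, and 0.08 adjusted over 6 lengths). Stretches of 20 bases separated the genotypes differently, with 6.01% and 6.15% in B73, 9.25% and 10.75% in Mm, 5.12% and 4.53% in mm (exact permutation p = 0.133) and 12.76% in ago104. Both mm values were again below all of B73 and Mm, while among the libraries compared Mm lay furthest from the rest.

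Every block of the arm showed the same change. The share of 19-base stretches in a block was 37.6% to 41.1% in B73 and Mm and 9.74% to 16.2% in mm. The deposited lengths are those of alignments, and the deepest stretch at MIR396c, a microRNA gene of the arm, was 16 bases wide in each library, shorter than the mature miR396 known from plants. Whether other reads were shortened likewise was not tested, so the lengths are given as the tables have them.

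The rest of the chromosome showed almost the same lengths. There, 19-base stretches made up 40.29% and 39.33% in B73, 40.91% and 40.97% in Mm and 14.24% and 10.93% in mm. The arm was therefore 0.58 to 0.68 percentage points below the rest in all 4 libraries of B73 and Mm and 0.71 and 0.15 points above it in mm, a difference between genotypes at the limit of the exact test (p = 0.0667). For 17-base stretches the arm was 1.65 and 0.96 points below the rest in mm, and between 0.35 below and 0.32 above it in the others. Over all 6 libraries, the one length whose share was on the same side in each was 16 bases, at 0.509 points more in the arm (exact sign-flip p = 0.03125, 0.188 adjusted over 6 lengths).

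**Figure D2:**
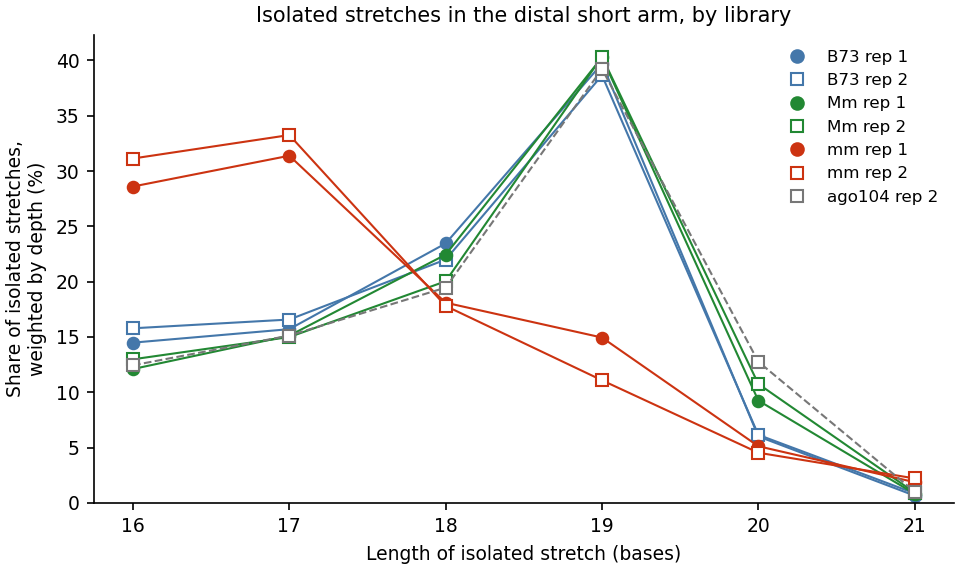
Share of isolated stretches in the arm by length in bases, weighted by depth, with 1 line per library. B73, Mm and ago104 peak at 19 bases near 39% to 40%, whereas both mm libraries peak at 17 bases with 31.4% and 33.3%.

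In B73 and Mm, covered bases were densest just outside genes, and in mm within them. Distances were taken to the nearest protein-coding gene, and densities are given relative to the mean of chromosome 2. Within genes the density of covered bases was 1.51 and 1.58 in B73, 1.50 and 1.50 in Mm, and 1.98 and 2.01 in mm. From 500 to 1000 bp outside a gene it was 2.36 and 2.29 in B73, 2.48 and 2.57 in Mm, and 1.71 and 1.58 in mm.

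The first 500 bp behaved like the next, with 2.32 and 2.23 in B73, 2.34 and 2.42 in Mm and 1.84 and 1.68 in mm. The density then fell with distance in every library. From 2 to 5 kb it was 1.43 to 1.51 in B73 and Mm and 1.23 and 1.15 in mm, and beyond 20 kb 0.722 to 0.731 and 0.784 in both mm libraries. In 7 of the 8 distance classes mm lay outside the other 4 libraries (exact permutation p = 0.0667, 0.0762 adjusted over 8 classes), and only the class from 5 to 10 kb overlapped.

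In capped coverage mm was again lower than the other 4 libraries just outside genes and higher within them. Its gene body, however, no longer exceeded the first 500 bp. From 0 to 500 bp it was 3.38 and 3.26 in B73, 3.28 and 3.36 in Mm and 2.20 and 2.01 in mm, and within genes 1.53 and 1.57, 1.49 and 1.49, and 1.99 and 1.96. Uncapped coverage reversed the class from 500 to 1000 bp, at 2.79 and 2.98 in B73, 4.18 and 4.69 in Mm and 4.76 and 5.08 in mm, a class that holds the deepest stretch of the arm, at 29.5 Mb. The single ago104 library, with the largest depth, had 1.61 from 0 to 500 bp and 1.41 within genes in covered bases, and 2.68 and 1.51 in capped coverage. The part of depth in the difference between genotypes was not tested.

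**Figure D3:**
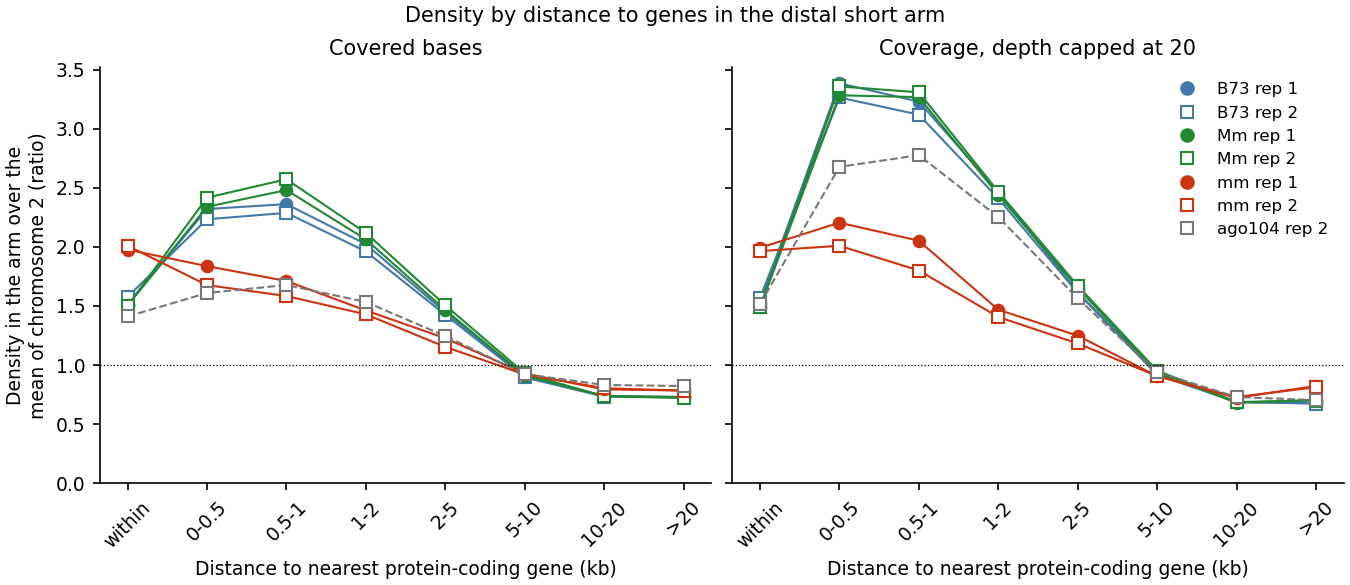
Density of covered bases (left) and of coverage with depth capped at 20 (right) in the arm, by distance to the nearest protein-coding gene in kb and relative to the mean of chromosome 2 (dotted line at 1). Each line is a library. In B73 and Mm the flank up to 1 kb exceeds the gene body (2.23 to 2.57 against 1.50 to 1.58 in covered bases), and in mm the gene body is highest in covered bases (1.98 and 2.01).

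Genes and their 2 kb flanks made up 21.9% of the positions of the arm and 12.2% of the rest. They held 37.1% and 37.4% of the covered bases of the arm in B73, 37.2% and 37.5% in Mm and 37.3% in both mm libraries, which did not separate the genotypes (exact permutation p = 0.867). Within that total the balance moved. Protein-coding genes held 18.7% and 19.6% in B73, 18.5% and 18.4% in Mm and 23.9% and 24.6% in mm, and their flanks 17.8% and 17.2%, 18.1% and 18.5%, and 12.5% and 12.0%. In capped coverage, the part near genes was 41.1% in both B73 libraries, 40.2% and 40.3% in Mm and 38.5% and 37.8% in mm, lowest in mm (exact permutation p = 0.0667). In uncapped coverage it was 50.4% and 43.7%, 41.8% and 42.7%, and 43.3% and 44.0%, so the sign of the difference between mm and Mm turned with the cap.

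Set beside the same distances in the rest of the chromosome, the arm was alike near genes and lower far from them, as a description with no test. Covered bases in the first 500 bp outside a gene were 0.9995 to 1.07 times as dense in the arm as in the rest. Beyond 20 kb from any gene they were 0.858 to 0.883 times as dense in B73 and Mm and 0.936 and 0.924 times in mm, below 1 in each library.

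Among single windows of the arm, most had a lower scaled coverage in mm than in Mm. The median window held 321 and 323 scaled units in B73, 387 and 364 in Mm, 243 and 242 in mm and 364 in ago104, against 268 and 267, 328 and 306, 196 and 194, and 307 in the rest. By limma, fitted over all windows of the chromosome with Benjamini-Hochberg adjustment at 0.05, 241 of the 395 windows differed between mm and Mm, 229 lower and 12 higher. On the whole chromosome, 62.3% of windows were called (59.0% lower and 3.28% higher), so the 61.0% in the arm was near the background. In 354 arm windows the libraries of mm and Mm did not overlap (89.6%, background 89.5%). The median log2 change was -0.58 in the arm and -0.61 in the rest.

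Beside this shift of the typical window, the 5 deepest windows held more of the coverage of the arm in mm. The 5 arm windows of highest mean coverage held 7.43% and 10.3% of its coverage in B73, and 7.38% and 11.4% in Mm. In mm they held 19.8% and 21.6%. The mean that ranked them included the mm libraries, so windows high in mm were favoured and the larger share in mm is no test. Of covered bases they held 1.47% to 1.59% in the libraries compared. The set was the same for every library, and the deepest arm window of B73 replicate 1, with 12998 scaled units, was not in it. These shares therefore do not show how concentrated coverage was in each library's own deepest windows. When libraries were scaled by the median ratio of their windows instead, which sets the median log2 change near 0, 88 windows were lower and 79 higher (22.2% and 20.6% on the chromosome). With depth capped at 20 the numbers were 152 and 84 (34.6% and 23.1%). All 12 higher windows and 88 of the 229 lower ones were also called with the median ratio (background 3.28% and 22.2%), and 8 and 78 of those in capped coverage too (2.22% and 19.1%).

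Covered bases, likewise, rose and fell in similar numbers. Of 395 windows, 69 were higher and 80 lower in mm than in Mm (149 in all, 37.7%, background 39.1%, with 23.2% lower). In 263 windows the libraries did not overlap (66.6%, background 67.0%). The count of calls fell to 84 without Mm replicate 1 and to 70 without Mm replicate 2, and rose to as many as 200 without another library. Altogether 5 higher and 33 lower windows were called in coverage under the 3 ways of scaling and in covered bases (background 0.985% and 10.1%).

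**Figure D4:**
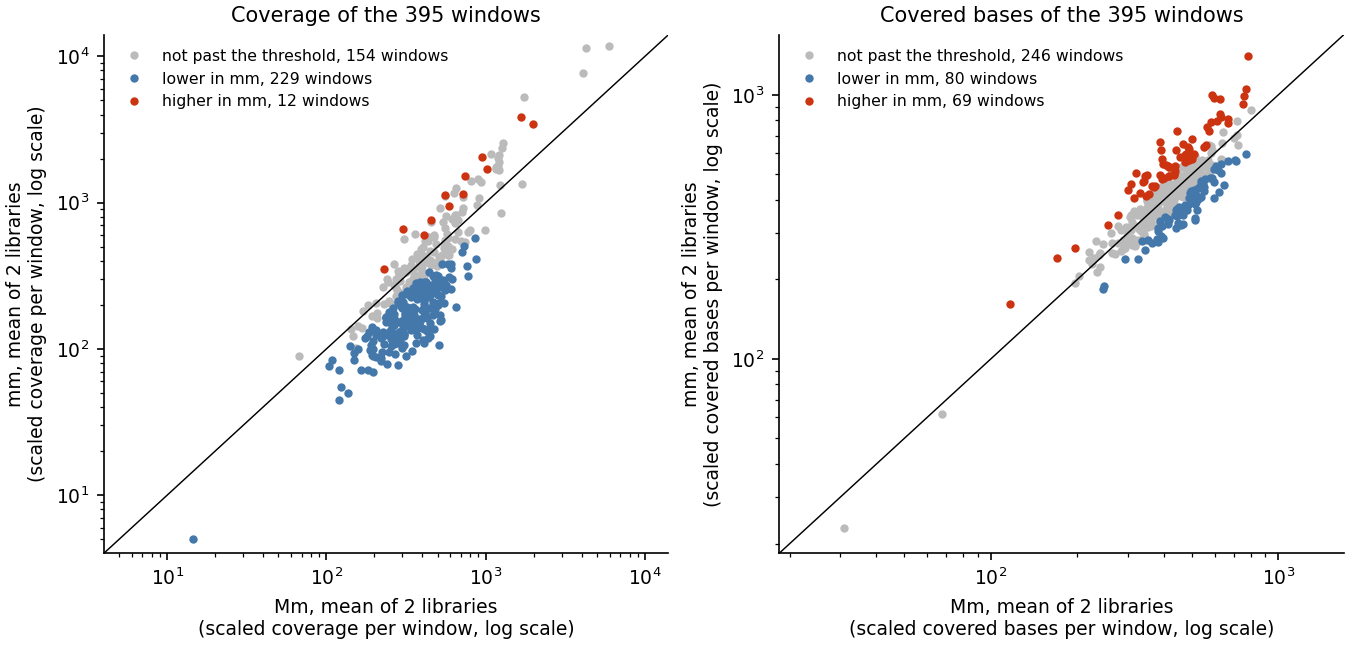
Each point is 1 of the 395 windows of the arm, with the mean of the 2 Mm libraries on the horizontal and of the 2 mm libraries on the vertical axis, both logarithmic, for scaled coverage (left) and scaled covered bases (right). The line marks equal values. In coverage 229 windows called lower in mm lie below the line and 12 called higher lie above it at medium to high coverage, and in covered bases 80 and 69 lie on both sides.

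Against B73, 258 arm windows differed in mm, 212 lower and 46 higher (65.3%, background 62.2%, with 51.9% lower and 10.3% higher), and the median log2 change was -0.50. The libraries did not overlap in 326 windows (82.5%, background 82.8%). With the median ratio the numbers were 98 and 88 (background 23.6% and 22.2%), and with capped depth 156 and 84 (35.5% and 21.5%). In covered bases, 79 were lower and 72 higher (38.2%, background 40.1%, with 24.7% lower and 15.4% higher), and 273 windows did not overlap (69.1%, background 70.2%). The number called was 75 or 88 when B73 replicate 1 or replicate 2 was left out. Both comparisons share the mm libraries.

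Between Mm and B73, both with a working Mop1 copy, fewer windows were called. By coverage, there were 75, 55 higher and 20 lower in Mm (background 18.6%, with 14.3% higher and 4.27% lower), but 8 and 20 with the median ratio (background 1.97% and 4.43%) and 12 and 16 with the cap (2.46% and 3.04%). The libraries did not overlap in 259 windows (65.6%, background 68.7%). No window was called without either Mm library, with 65 and 114 at an unadjusted p under 0.05, and 186 were called without B73 replicate 1. In covered bases 6 windows were called, 2 higher and 4 lower (1.52%, background 1.23%, with 0.328% higher and 0.903% lower), and 0 when any 1 of these 4 libraries was left out.

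Windows with more genes carried more coverage in every library. From windows with no gene start (34) to those with 1 to 2 (174), 3 to 4 (100) and 5 or more (87), the median was 243, 344, 407 and 509 scaled units in Mm replicate 1 and 129, 205, 252 and 317 in mm replicate 1. Across the 395 windows the number of gene starts correlated with log2 covered bases at r = 0.42 to 0.51 (a description, with windows of a library sharing its depth). In capped coverage, 13 of the 34 windows without a gene start were higher in mm than in Mm and 6 lower (background of such windows 34.2% and 20.7%), and of those with 1 to 2 starts 41 and 61 (21.2% and 34.9%). Of those with 3 to 4 starts 16 were higher and 54 lower (14.3% and 51.9%), and of those with 5 or more 14 and 31 (11.6% and 46.8%).

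The windows that fell most between Mm and mm were of ordinary depth and had no single source. The largest fall was in the window from 30.3 to 30.4 Mb, at 558 and 468 scaled units in Mm and 117 and 95.3 in mm, with 441 and 359 in B73 (log2 change -2.27 ± 0.18 SE, limma adjusted p = 0.000232). Its deepest 200 bp, at 30365748 inside LOC103646226, reached a depth of 63 and 36 in Mm and 1 in both mm libraries. The window from 31 to 31.1 Mb held 435 and 385 in Mm and 112 and 108 in mm (log2 change -1.89), and its deepest stretch, inside LOC100194081, reached 79 and 72 in Mm and 1 and 3 in mm.

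The other 3 fell as well. The window from 36.8 to 36.9 Mb went from 476 and 421 in Mm to 131 and 114 in mm, with its deepest stretch 1090 bp from LOC107403167. The window from 10 to 10.1 Mb went from 467 and 396 to 122 and 115, with its deepest stretch 676 bp from the non-coding gene LOC118471929. The window from 39.5 to 39.6 Mb went from 283 in both Mm libraries to 83.8 and 72.4. Its deepest 200 bp, at 39598705, held 40.5 and 43.5 scaled units in B73, 0 and 0.725 in Mm and 1.94 and 0 in mm. In all 5 windows B73 and ago104 lay above both mm libraries, and the 5 calls held under every alternative tried.

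In 4 of the 5 windows named for the largest called rises, the deepest 200 bp held 58.4% to 89.5% of the mm units, and in that from 20.9 Mb 14.5% and 15.3%. Among called windows, that from 5.1 to 5.2 Mb rose most, with 432 and 1014 scaled units in B73, 1562 and 1766 in Mm and 3520 and 4119 in mm (log2 change between Mm and mm 1.20 ± 0.44 SE, limma adjusted p = 0.0462). The 200 bp at 5130335, inside LOC100191439, held 847 and 947 of these units in Mm and 2056 and 2669 in mm. The window from 7.3 to 7.4 Mb rose from 980 and 909 in Mm to 1962 and 2117 in mm (log2 change 1.11), most of it in 200 bp that lie 495 bp from LOC103645885.

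A further rise lay far from genes. The window from 26.7 to 26.8 Mb rose from 585 and 895 to 1506 and 1531 (log2 change 1.07), with 1342 and 1371 of the mm units in 200 bp that have no protein-coding gene within 10 kb. The calls at 5.1 and 7.3 Mb were lost when any 1 of the 4 libraries was left out (log2 change 1.08 to 1.31 and 1.05 to 1.16), and that at 26.7 Mb without Mm replicate 1 (0.76) or either mm library (1.08 and 1.06).

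Some windows placed Mm apart from both other genotypes or on the way between them. The window from 18.8 to 18.9 Mb held 1545 and 1236 scaled units in B73, 306 and 301 in Mm and 601 and 713 in mm, and its 200 bp at 18849024 held 1373 and 1069, 83.3 and 104, and 523 and 632. It was lower in Mm than in B73 (log2 change -2.18) and higher in mm than in Mm (1.11), with the second sign turned by the cap (-0.30). The window from 20.9 to 21 Mb held 226 and 218 in B73, 600 and 513 in Mm and 1047 and 1210 in mm, with log2 changes of 1.32 and 1.02, and its covered bases rose as well from Mm to mm (log2 change 0.77, limma adjusted p = 2.48e-05). The window from 6.4 to 6.5 Mb held 509 and 491, 2209 and 1734, and 3327 and 3574, with a log2 change from B73 to Mm of 1.97 and from B73 to mm of 2.78. These last 2 kept B73 lowest and mm highest with no overlap, and their calls between Mm and B73 were lost without either Mm library.

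The 5 deepest windows of the arm did not all move alike. The deepest, from 29.5 to 29.6 Mb, held 1420 and 2778 scaled units in B73, 4687 and 7255 in Mm, 11365 and 12029 in mm and 5378 in ago104. A single 200 bp stretch at 29501992, 903 bp from LOC100192570, held 85.1% and 90.0% of the window in Mm, 95.2% and 94.8% in mm and 5.6% and 62.2% in B73. It was higher in mm than in B73 (log2 change 2.56 ± 0.71 SE, limma adjusted p = 0.0166, lost without either mm library), and the step from Mm to mm did not pass (1.00, adjusted p = 0.246).

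The next windows ran in the same order of genotypes. From 32 to 32.1 Mb there were 1142 and 3226 scaled units in B73, 3473 and 4996 in Mm and 9480 and 13272 in mm, with the deepest stretch over 10 kb from any protein-coding gene. From 32.6 to 32.7 Mb there were 492 and 1856, 1271 and 2194, and 4788 and 5825, with the deepest stretch 1297 bp from LOC100382341. From Mm to mm the log2 changes were 1.43 and 1.66, with limma adjusted p of 0.122 and 0.055. The window from 12.2 to 12.3 Mb, with 1350 and 5920 in B73, 2996 and 5117 in Mm and 8363 and 6949 in mm, differed widely between the B73 libraries and passed no comparison (limma adjusted p = 0.332, 0.166 and 0.678).

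Its neighbour from 12.1 to 12.2 Mb went the other way, with 8725 and 4426 scaled units in B73, 1064 and 1318 in Mm and 1879 and 1705 in mm. The 200 bp at 12168354, inside LOC103645972, held 93.2% and 89.6% of it in B73 and 39.2% and 57.1% in Mm. The window from 15.1 to 15.2 Mb was similar, at 4409 and 2381 in B73, 463 and 576 in Mm and 939 and 886 in mm, with a stretch inside LOC100279951 that held 93.1% and 83.1% in B73. Their log2 changes between Mm and B73 were -2.39 and -2.65 (limma adjusted p = 0.0234 and 0.00912), and both were lost without either Mm library.

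The 3 largest of the 212 falls from B73 to mm were also named. In the window from 20.6 to 20.7 Mb, 200 bp that lie 2673 bp from LOC103648461 held 1594 and 800 scaled units in B73, 38.9 and 80.4 in Mm and 142 and 93.4 in mm. In the window from 28.6 to 28.7 Mb, the deepest stretch held 1111 and 566, 52.2 and 80.7, and 189 and 143. The log2 changes of these windows were -2.48 and -1.99 (limma adjusted p = 0.00108 and 0.00136). The third, from 1.1 to 1.2 Mb (log2 change -2.81, adjusted p = 0.0488), rested on B73 replicate 1. Without it the change was -0.85, and with depth capped at 20 it turned to 0.82.

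Conversely, a stretch near 33.4 Mb was almost absent in B73. The 200 bp at 33396583, 2857 bp from LOC100279386, held 0.6 and 0.4 scaled units in B73, 708 and 393 in Mm, 289 and 336 in mm and 82.0 in ago104, with a greatest depth of 2 and 1 in B73 and 1278 and 642 in Mm. Its window was higher in Mm than in B73 (log2 change 1.25, limma adjusted p = 0.0321), a call that was lost without any 1 of the Mm or mm libraries.

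**Figure D5:**
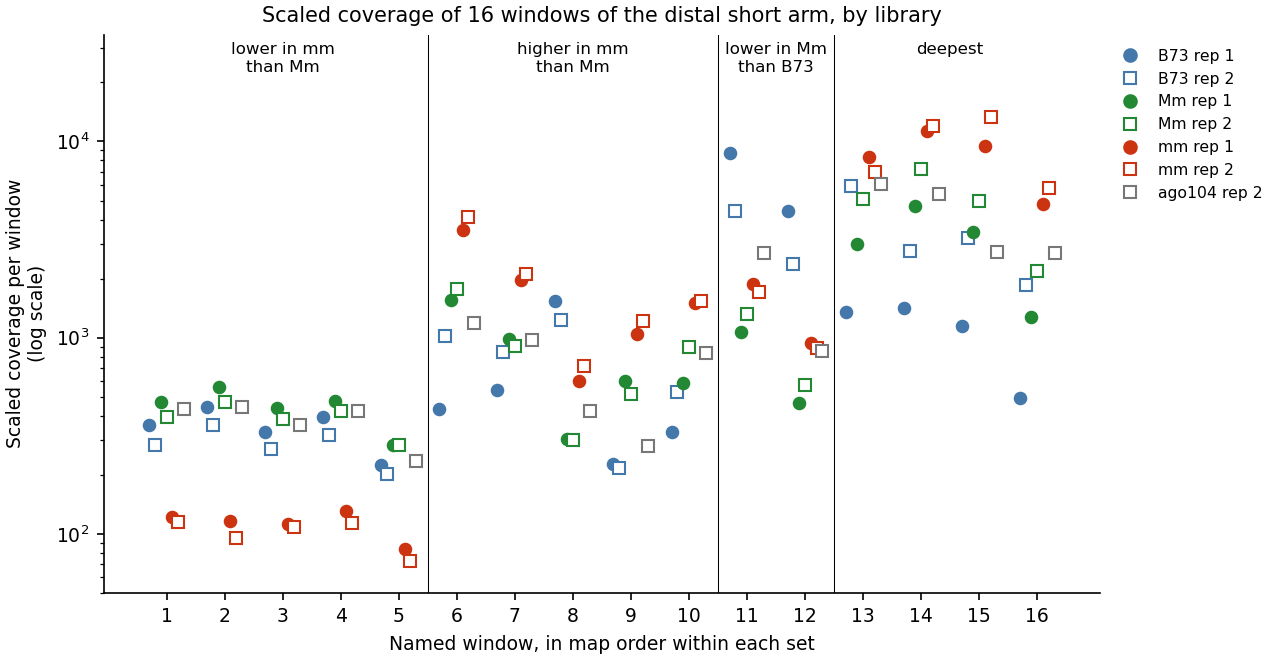
Scaled coverage of 16 windows of the arm on a logarithmic axis, with 1 point per library, in map order within 4 sets. Windows 1 to 5 are the largest falls from Mm to mm (the mm points between 72.4 and 131 lie below all others), windows 6 to 10 the largest rises, 11 and 12 the windows from 12.1 and 15.1 Mb that are highest in B73, and 13 to 16 the other deepest windows, with mm up to 13272.

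At the limits of the arm, the last window inside it (39.9 to 40 Mb) held 279 and 312 scaled units in B73, 376 and 365 in Mm and 200 and 239 in mm, and the first outside (40 to 40.1 Mb) 184 and 169, 220 and 234, and 176 and 223. On the sides of b1, the window up to 19.5 Mb held 1116 and 495, 442 and 436, and 418 and 388, and that from 20 Mb 259 and 236, 283 and 249, and 119 and 134.

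Around genes, too, coverage was mostly lower in mm. Of the 1155 protein-coding genes of the arm, 1154 passed a minimum mean of 5 scaled units over the gene and 2 kb on both sides. Of these, 706 differed between mm and Mm by limma, 655 lower and 51 higher (61.2%, background 65.1% over 4083 genes of the chromosome, 61.7% lower and 3.36% higher). The median log2 change was -0.91 in the arm and -1.06 in the other genes. With the median ratio 232 were lower and 301 higher (background 21.7% and 22.5%), and with capped depth 373 and 202 (34.3% and 15.1%). Between mm and B73 689 genes differed, 600 lower and 89 higher (59.7%, background 61.9%, with 54.8% lower and 7.08% higher), but 208 lower and 240 higher with the median ratio (background 19.8% and 19.1%) and 394 and 190 with the cap (36.3% and 15.1%). Between Mm and B73 50 did, 21 higher and 29 lower in Mm (4.33%, background 4.48%, with 2.33% higher and 2.16% lower), but 1 without either Mm library, 134 and 172 without B73 replicate 1 and 2, 30 without either mm library and 9 with the cap. Neighbouring genes can share coverage.

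The 5 genes with the largest falls lost nearly all of their coverage in mm. LOC111590840 held 135 and 95.8 scaled units in B73, 232 and 214 in Mm, 14.4 and 7.93 in mm and 183 in ago104 (log2 change -4.25 ± 0.31 SE, limma adjusted p = 4.02e-05). LOC100303866 went from 81.7 and 80.8 in Mm to 5.20 and 2.11 in mm, and LOC100278436 from 120 and 104 to 11.9 and 5.10. LOC100381847 went from 58.3 and 56.8 to 4.36 and 4.49, and LOC100281817 from 67.2 and 73.5 to 5.63 and 5.66. In each of the 5, B73 and ago104 lay far above mm, and each call held under every alternative tried.

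In 4 of the 5 genes named for the largest rises, the deepest 200 bp held at least 92.0% of the mm units, and at LOC103645841 60.1% and 74.1%, beside 59.3% and 71.6% of the Mm units. LOC100191933 held 36.9 and 61.7 scaled units in B73, 114 and 108 in Mm and 289 and 407 in mm, with 92.0% and 95.4% of the mm units in 200 bp (log2 change 1.62, limma adjusted p = 0.00158). LOC103645885, beside the rise at 7.3 Mb, went from 587 and 540 in Mm to 1636 and 1769 in mm (1.59, adjusted p = 0.0307, lost without any 1 of the 4 libraries and turned to -0.11 by the cap). For LOC100280450 the order was B73 at 261 and 530, Mm at 89.6 and 111 and mm at 252 and 398, so mm lay with B73. LOC103648480 is its neighbour and shares most of that coverage, and LOC103645841 had the same order at 154 and 322, 89.5 and 87.2, and 219 and 298. The calls of the last 3 were lost without mm replicate 2 (log2 change 1.32, 1.15 and 1.30), and the 0.5 kb flank turned LOC100280450 to -0.39.

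Of the listed genes that act in silencing, 3 lie in the arm, and none was called between Mm and mm under all scalings. The gene of rmr7 (RPD2, LOC100037782), a subunit shared by plant RNA polymerases IV and V, held 34.6 and 30.6 scaled units in B73, 53.8 and 52.5 in Mm and 31.6 and 34.6 in mm. Its fall from Mm to mm passed with plain scaling (log2 change -0.67, limma adjusted p = 0.0206) and turned with the median ratio (0.40) and the cap (0.21). The DNA methyltransferase gene met5 (Zmet5) held 148 and 204, 355 and 333, and 511 and 723, which did not pass between Mm and mm (0.82, adjusted p = 0.0597) but did between B73 and mm (1.80, adjusted p = 0.00207), and its 200 deepest bp held 93.1% and 96.0% of the mm units. At rmr2 (LOC100381913), which is required in maize to keep paramutant states repressed, the values were 32.8 and 153, 76.6 and 87.9, and 154 and 138, with no call between mm and Mm (0.82, adjusted p = 0.224).

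The other lists gave 1 gene each. Liguleless lg1 (LOC542528), a transcription factor gene needed for the ligule and auricle of the leaf, held 15.6 and 16.8 scaled units in B73, 38.3 and 25.7 in Mm and 21.5 and 23.9 in mm, with no call between mm and Mm (log2 change -0.45, limma adjusted p = 0.149). Of the anthocyanin genes, fht1 (LOC542712), which encodes flavanone 3-hydroxylase, held 16.4 and 13.8, 18.2 and 19.8, and 2.06 and 8.52, and fell (-1.89, limma adjusted p = 0.00666), but not with the median ratio (-1.04) or the cap (-1.17). In mm replicate 1 all of the 2.06 units lay in 200 bp, so that value is near the floor.

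Further known genes of the arm were named after their values were seen. At wus1 (LOC100037786), a homolog of the stem cell regulator WUSCHEL, coverage was 43.1 and 33.3 scaled units in B73, 45.9 and 38.2 in Mm and 10.1 and 6.89 in mm (log2 change -2.19, limma adjusted p = 0.000153). At glossy2 (LOC103645956), which acts in the wax layer of the seedling leaf, it was 47.0 and 38.4, 86.9 and 74.3, and 5.14 and 15.4 (-3.02, adjusted p = 0.000242). At CCD7 (LOC100502521), an enzyme of strigolactone synthesis, it was 62.5 and 49.2, 79.3 and 70.9, and 11.4 and 15.1 (-2.43, adjusted p = 6.98e-05).

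These 3 and Nkd1 (LOC542199), a transcription factor gene of the aleurone (59.2 and 49.5, 64.7 and 61.3, and 20.1 and 19.2 scaled units, log2 change -1.63), were lower in both mm libraries than in any other and kept their calls under every alternative tried. The response regulator gene abph1 (LOC541629), which sets the arrangement of leaves, held 13.5 and 9.94, 29.8 and 25.9, and 7.62 and 17.1, and its call (-1.20, limma adjusted p = 0.0164) was lost without mm replicate 1 (-0.67), without either Mm library and with either other scaling.

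The genes of other small RNAs were also read, each over its own length and without flanks. The arm holds 15 microRNA genes, and their summed coverage was 8.19 and 6.29 scaled units in B73, 46.7 and 44.0 in Mm, 29.4 and 12.2 in mm and 38.2 in ago104. Most of it was MIR396c, whose product targets growth-regulating factors, at 1.96 and 2.85 in B73, 35.4 and 29.3 in Mm, 20.3 and 5.72 in mm and 26.8 in ago104. B73 was thus lowest, without overlap with any other library. MIR171h, of a family that targets GRAS transcription factors, held 0.377 and 0.348, 4.25 and 5.38, and 1.03 and 1.63, with a greatest depth of 1 or 2 in B73 and mm, too low to rank them. At the 8 genes of the MIR395 cluster, which acts in sulfate supply, depth was at most 3 in the 6 libraries, too low to compare.

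Structural RNAs of the arm were covered more deeply. The 11 snRNA genes summed to 724 and 867 scaled units in B73, 794 and 855 in Mm and 1689 and 1863 in mm. Of these, 5 genes in the windows from 38.5 and 38.6 Mb held most of it, LOC111590945 for instance at 120 and 154 in B73, 176 and 190 in Mm and 352 and 416 in mm, and near-identical copies cannot be told apart in the coverage. The 24 snoRNA genes summed to 1128 and 1644, 488 and 688, and 1183 and 1321, lowest in Mm. Single genes went both ways, LOC111591011 at 1.37 and 1.52, 29.0 and 50.6, and 111 and 108, and LOC111591081 at 356 and 334, 85.6 and 121, and 97.1 and 91.4.

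The 27 tRNA genes summed to 460 and 330 scaled units in B73, 769 and 465 in Mm and 704 and 813 in mm. Mm and mm overlapped, and B73 was lowest, though by a narrow margin (460 against 465 in Mm replicate 2). The alanine tRNA gene with anticodon UGC held the most, at 192 and 117, 391 and 173, and 313 and 325, while a proline tRNA gene with anticodon CGG held 134 and 77.6, 34.3 and 48.6, and 38.8 and 94.3. Copies of a tRNA share their sequence, so a single gene's value may hold reads of others. Taken over positions, snRNA and snoRNA genes held 1.05% and 1.42% of the coverage of the arm in B73, 0.70% and 0.84% in Mm, 1.59% and 1.73% in mm and 0.67% in ago104, highest in both mm libraries.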

How the data were processed

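The authors trimmed the reads with Trimmomatic, aligned them with Bowtie 1.2.2, reporting at most 2 places per read on the whole genome, and made coverage tables with bedtools. The deposited coverage signal is the depth of each interval of chromosome 2, in whole numbers, unscaled, with uncovered positions left out. Which alignment the tables hold is not given in the sources used here. Gene positions (RefSeq, Zm-B73-REFERENCE-NAM-5.0) were moved by -2 bp before b1 and 7854 bp beyond it, the shifts at which 17 and 136 tRNA genes gathered most coverage, so the coordinates printed are those of the tables and of no released build. No sequence was read, for lack of a genome. The tables by length class carry no sample and were not used.

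Coverage and covered bases were summed per window of 0.1 Mb, scaled to 1000000 per library, moved to the log2 scale after adding a pseudocount of 1, and fitted by limma 3.58.1 (R 4.3.3) with trend, the 6 libraries of 3 genotypes in 1 model, and Benjamini-Hochberg adjustment over all windows or genes. A count model was not used, since depths are not read counts. The fit was also run on simulated windows with known changes, independent noise and spreads shuffled over windows. That run cannot show how the fit handles deviations shared between libraries or a spread that follows the mean. Single values were compared by two-sided exact permutation tests (Python 3.11.15, numpy 2.4.6, scipy 1.17.1, pandas 2.3.3, matplotlib 3.10.9). Replicates are 2 biological replicates per genotype according to the protocol, with no word on plants or pools. The legend of the study's chromosome coverage figure speaks of technical and biological repeats. Whether the 2 libraries of a genotype are independent is therefore not settled, and the tests treat them as such. Named windows and genes were the 5 largest falls and rises past the threshold without overlap between Mm and mm, 3 of each for the other comparisons, the 5 deepest windows, and lists of classical, silencing, anthocyanin and microRNA genes. The region, lists and tests were chosen with earlier results of these data known. Alternatives were the scaling, a cap on depth at 20, the pseudocount, filters, the trend, the genotypes in the fit, the flank, a replicate block and leaving out each library. Those for distance to genes, for the arm over the rest, for the block from 30 Mb and for covered bases and genes against B73 were added after seeing the data.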

Additional observations from a re-analysis of the deposited data

How the results depend on the processing

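Across the named windows and genes, most values kept their direction and their side of the threshold (312 of 378 values for 27 window comparisons and 203 of 239 for 20 genes). The cap turned the log2 change of the windows from 18.8 Mb (-0.303) and 12.1 Mb (-0.495) between mm and Mm, from 1.1 Mb between mm and B73 (0.82) and from 12.1 Mb (0.0599) and 33.3 Mb (-0.023) between Mm and B73, and of the genes LOC103645885 (-0.109), met5 (-0.387) and LOC100037782 (0.214). The median ratio turned LOC100037782 to 0.404, and a flank of 0.5 kb turned LOC100280450 to -0.390. The windows called between Mm and B73 fell from 75 to 28 with the median ratio, 33 with scaling outside the top 1% of windows, 28 with the cap and 12 with only these 2 genotypes in the fit. In covered bases the 6 calls fell to 1 without the trend and 2 at a depth of 2 or more. In windows of 0.5 Mb, 45, 53 and 11 of 79 were called for mm against Mm, mm against B73 and Mm against B73. Counts of calls in this section, and those above with a library left out, stand without the share over the chromosome. They show how calls moved with the processing and nothing particular to the arm. A flank of 0.5 kb lowered the genes called between mm and Mm from 706 to 452 and between mm and B73 from 689 to 408, the latter 448 with the median ratio, and the 50 genes between Mm and B73 were 98 with a pseudocount of 10 and 9 with the cap. Without the windows among the 5 deepest of the arm, the difference between mm and Mm in the block from 30 Mb turned from 1271 to -909 scaled units per Mb. That turn was favoured by the choice of windows, since mm entered the mean that ranked them. The difference between mm and Mm in the share of coverage in the arm moved from -0.026 to -0.61 percentage points with the cap, that in covered bases turned from 0.13 to -1.25 at a depth of 2 or more, and that near genes turned from 1.37 to -2.12 with the cap and -0.57 without the top 1% of windows. The density within genes moved from 0.49 to 0.32 with coverage in place of covered bases, and that from 500 to 1000 bp from -0.88 to -1.36 with capped coverage and to 0.48 with coverage. The density of the arm over the rest rose from 1.143 to 1.168 without the top 1% of windows. The cause of these moves was not tested.

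Leaving out 1 library in turn gave 163 to 311 windows called by coverage between mm and Mm, 175 to 303 between mm and B73 and 0 to 186 between Mm and B73. In covered bases it gave 70 to 200, 75 to 195 and 0 to 47, and for genes 489 to 818, 577 to 726 and 1 to 172. The difference between mm and Mm then ran from -0.185 to 0.133 percentage points for the share of coverage, 0.0423 to 0.212 for covered bases, 0.898 to 1.83 for coverage near genes, 16.3 to 18.2 for 17-base and -29.2 to -25.4 for 19-base stretches. It was 0.473 to 0.506 for the density within genes and -0.942 to -0.815 from 500 to 1000 bp, and the arm over the rest was 1.138 to 1.150. Where a genotype kept 1 library, its spread was assumed to be that of the others.

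With a replicate block, 237, 260 and 82 windows were called by coverage, 148, 149 and 6 by covered bases, and 720 genes. Deviations of libraries with the same number correlated at 0.444 for B73 and Mm, 0.003 for B73 and mm and 0.011 for Mm and mm. Within the arm these were 0.508, 0.046 and -0.023. B73 and Mm libraries of the same number thus shared deviations in coverage, and those of mm shared almost none with either. What the numbers stand for was not tested.

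Of the libraries compared, those of mm covered the fewest arm positions (1.68% and 2.62%).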
